A study of Mus musculus with 6 samples.

Results

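YAP1, its paralogue TAZ (gene Wwtr1), the TEAD factors Tead1, Tead2 and Tead3, and the target genes Ctgf, Cyr61, Ankrd1, Amotl2 and Lats2 were followed in mouse synovial fibroblasts treated with compound 33. The members were chosen as components of this pathway or direct targets of it, with earlier results of these data known, and were looked up by symbol, which found all 10 among the 21033 genes of the count table. All 10 passed the filter on low counts and are among the 10124 genes tested. Primary synovial fibroblasts from ankle joints of hTNFtg mice were grown for 3 passages and then received 10 µM compound 33 (3 libraries) or DMSO, the vehicle (3 libraries), for 48 h. The hTNFtg genotype, a human TNF transgene that causes chronic arthritis in mice, was shared by both groups, and cells without the transgene were not analysed here. The labels name neither the number of mice nor any pooling. Nothing in them marks replicates as independent cultures, and the p-values below thus reflect library-to-library spread that could be technical. Compound 33 is known here only by its code name, and the title of the series ties it to the chaperone Hyou1.

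YAP1 and TAZ are transcriptional coactivators without a DNA-binding domain of their own. They reach the genome mainly through TEAD factors, which recognise short motifs in enhancers and promoters. The Hippo kinases LATS1 and LATS2 phosphorylate both coactivators and keep them out of the nucleus, while a stiff matrix and a tensed actin cytoskeleton favour their entry. In fibroblasts the pathway is known for driving the matricellular proteins CTGF (also called CCN2) and CYR61 (also called CCN1), and for feedback through AMOTL2 and LATS2, which are both targets and inhibitors. Control of YAP1 and TAZ lies largely in their phosphorylation and location, which transcript counts do not measure.

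The compound 33 libraries held 1594052 to 2384850 reads and the DMSO libraries 1913730 to 2897207. All 11 fibroblast markers examined, among them Pdgfra, Thy1 and Cdh11, had reads in every library, and together they reached 11600 to 13400 counts per 1000000 reads (CPM) with compound 33 and 13000 to 14600 CPM with DMSO. Macrophage markers summed to 53.5 to 105 CPM with compound 33 and 63.6 to 139 CPM with DMSO, largely from Lyz2 and Cd14, and Ptprc had at most 4 reads in a library. Endothelial markers reached 5.15 to 9.54 CPM and 2.44 to 3.71 CPM, with Pecam1 and Tie1 at 0 throughout. The pericyte and smooth muscle markers summed to 50.6 to 99.3 CPM with compound 33 and 51.4 to 85.6 CPM with DMSO, the skeletal muscle markers to 19.0 to 33.6 and 27.5 to 44.5 CPM, and the chondrocyte and bone markers to 112 to 155 and 78.5 to 164 CPM. Sox9 and Comp made up most of this last sum, and Acan, Sp7 and Ibsp were at 0 throughout. The part of any such cells in the values below was not tested.

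No member passed the test of compound 33 against DMSO. Wwtr1, the gene of TAZ, and Amotl2, an angiomotin that binds YAP1 and holds it back, were the members whose libraries separated completely, both lower with compound 33. Ctgf and Cyr61 differed far more between replicates of a group than between the groups. Over all 10124 genes tested with edgeR, 0.0296% passed at an adjusted p of 0.05, 0.00988% upward and 0.0198% downward under compound 33, and the members contributed 0. DESeq2, which called 0.188% of the genes it tested, and limma-voom, which called 0.0198%, also called 0 members. At an unadjusted p under 0.05 in edgeR, 1 of the 10 members was lower with compound 33 (Wwtr1) and 0 were higher, where 6.87% of all genes lay under that level, 3.23% lower and 3.64% higher. Groups that did not overlap were found for 2 of 10 members, both lower, against 13.4% of all genes in either direction, 6.73% lower and 6.64% higher. Among 10 members each gene is a coarse share, and these counts were not tested against the background. The log2 fold change was negative for 8 members and positive for 2, with a median of -0.16, where 51.1% of all genes were negative and the median of all genes was -0.01. In these bulk cultures, fewer cells of a kind and less RNA per cell cannot be told apart.

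**Figure D1:**
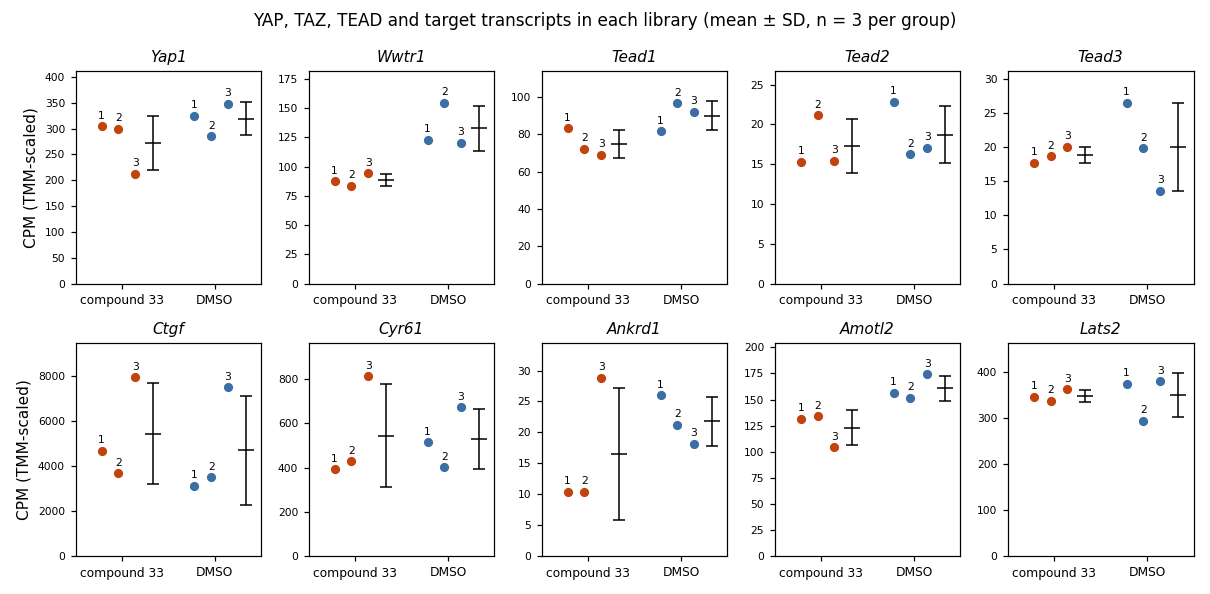
Abundance of each gene, in CPM on linear axes that start at 0, in the 3 compound 33 libraries (left, orange) and the 3 DMSO libraries (right, blue), with the replicate number above each point and the mean ± SD beside the points. Wwtr1 and Amotl2 are the genes whose points do not overlap between groups, while Ctgf and Cyr61 are highest in replicate 3 of both groups.

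The core of the motif that TEAD factors bind reads GGAATG, or CATTCC on the other strand. RefSeq promoter sequences (build GRCm38.p6, which is mm10), running from 250 bases before to 50 bases after a transcription start, were matched for 8 of the 10 members, Tead1 and Ctgf being the others. This motif, searched on both strands, was present for 7 of those 8, all but Tead2. Among all 27025 genes of that table, 16.6% had it in at least one such window, and among single windows 14.7%. The match is a description of sequence and not evidence of binding, and members chosen as pathway components or direct targets are not a random draw. Whether TEAD factors use any of these matches was not tested. The sites of the coactivators and targets are shown, each as 30 bases on the gene's own strand with the motif in capitals.
Yap1: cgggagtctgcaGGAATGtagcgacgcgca
Wwtr1: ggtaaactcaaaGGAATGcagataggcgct
Cyr61: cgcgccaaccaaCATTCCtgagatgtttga
Ankrd1 distal site: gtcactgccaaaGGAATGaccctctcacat
Ankrd1 proximal site: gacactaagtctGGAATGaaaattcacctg
Amotl2: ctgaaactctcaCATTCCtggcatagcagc
Lats2: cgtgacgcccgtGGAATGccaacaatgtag
The Yap1 stretch lies at chr9:8004720-8004749 on the minus strand, with its motif 141 bases before the start, and the Wwtr1 stretch at chr3:57576029-57576058 on the minus strand, 136 bases before it. The Cyr61 site is at chr3:145650071-145650100 on the minus strand, 103 bases before the start. Ankrd1 carries its motifs 210 and 123 bases before the start, at chr19:36120037-36120066 and chr19:36119950-36119979 on the minus strand. In Amotl2 the motif is 65 bases before the start, at chr9:102717727-102717756 on the plus strand. Of 2 annotated Lats2 windows, 1 held the motif. There it lies just inside the transcript, 4 bases after that start, at chr14:57746102-57746131 on the minus strand. This window, 57746074 to 57746373, lies inside the gene, whose outermost annotated start is at 57758388. The Ankrd1 and Amotl2 windows also lie inside their genes, so their starts are not the outermost ones either. Tead3 held 4 such motifs over its 3 annotated windows, more than any other member matched. Yap1, Wwtr1, Cyr61, Amotl2 and Lats2 each held 1 motif.

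The coactivator gene Wwtr1 (chromosome 3, 57455649 to 57575910, minus strand, mm10) had 87.4, 83.7 and 94.2 CPM in the compound 33 libraries, against 123, 154.7 and 120.5 CPM in the DMSO libraries. Every compound 33 library lay below every DMSO library, and the gap between the nearest pair was 94.2 against 120.5 CPM. The means were 88.5 ± 5.30 CPM with compound 33 and 132.7 ± 19.1 CPM with DMSO (SD, n = 3 each), a level 1.5-fold lower with compound 33. The log2 fold change was -0.59 (SE 0.21, 95% interval -1.03 to -0.14), with an unadjusted p of 0.0143 and an adjusted p of 0.631 in edgeR's quasi-likelihood test. In the authors' deposited table, the DESeq2 log2 fold change of Wwtr1 is -0.58 with an adjusted p of 0.652. Leaving out compound 33 replicate 2 gave an unadjusted p of 0.0646 and leaving out DMSO replicate 2, the highest library, one of 0.0637, with log2 fold changes of -0.54 and -0.45.

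Yap1, the other coactivator gene (chromosome 9, 7931999 to 8004596, minus strand), had 304.4, 299.7 and 212 CPM with compound 33, against 324.5, 285 and 348.5 CPM with DMSO. The first and second compound 33 libraries lay within the range of the DMSO libraries, and replicate 3 lay below it. The means were 272 ± 52.0 and 319 ± 32.0 CPM, a log2 fold change of -0.23 (SE 0.21, 95% interval -0.69 to 0.23, adjusted p = 0.893 in edgeR). Without compound 33 replicate 3 the estimate was -0.07, so the lower mean came mostly from that library. Wwtr1 therefore had 0.287, 0.279 and 0.444 reads for each Yap1 read in the compound 33 libraries and 0.379, 0.543 and 0.346 in the DMSO libraries, a ratio that needs no library scaling. These ratios overlapped between the groups, with compound 33 replicate 3, the library low in Yap1, the highest of its group. Whether the fold change of Wwtr1 differs from that of Yap1 was not tested, and their 95% intervals overlap.

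The levels of the DNA-binding partners overlapped between the groups. Tead1 (chromosome 7, 112679318 to 112906807) stood at 83.1, 72.1 and 69.0 CPM with compound 33, against 81.7, 96.5 and 91.9 CPM with DMSO. Compound 33 replicate 1 was the library that overlapped the DMSO range, and the log2 fold change was -0.27 (SE 0.21, 95% interval -0.72 to 0.18, adjusted p = 0.883 in edgeR). Tead2 (chromosome 7, 45215753 to 45233644), which is known for its role in the early embryo, stood at 15.3, 21.1 and 15.4 CPM with compound 33, against 22.8, 16.2 and 17.1 CPM with DMSO. Tead3 (chromosome 17, 28331671 to 28350817), known for its expression in placenta, stood at 17.7, 18.7 and 20.1 CPM with compound 33, against 26.5, 19.9 and 13.6 CPM with DMSO. Both genes overlapped between groups, and the Tead3 values of compound 33 lay inside the wider DMSO range. Their log2 fold changes were -0.10 (95% interval -0.72 to 0.53) and -0.07 (95% interval -0.72 to 0.58). With 25 to 51 reads per library for Tead2 and 29 to 50 for Tead3, these intervals run from 0.606 to 1.45 times the DMSO level for Tead2 and from 0.607 to 1.5 times for Tead3. Tead4, the remaining TEAD gene, was named after its values were seen, and its 2, 1 and 3 reads with compound 33 and 3, 9 and 5 reads with DMSO were too few to be tested.

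**Figure D2:**
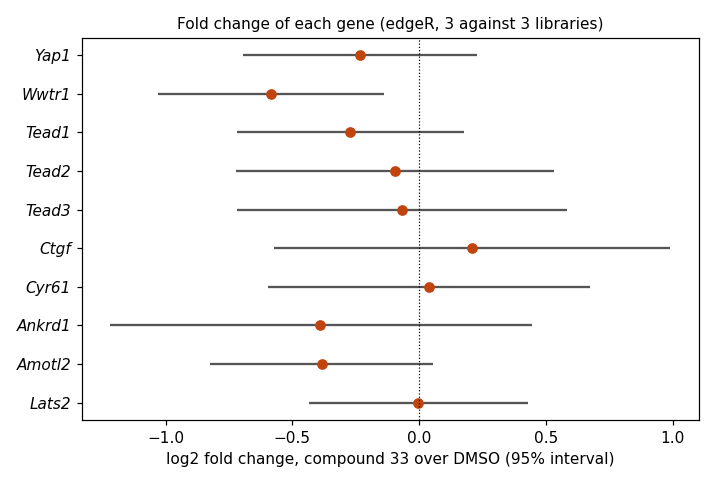
Log2 fold change of each gene, compound 33 over DMSO, from edgeR (points) with its 95% interval (lines), on 3 libraries per group. The interval of Wwtr1, -1.03 to -0.14, which is not adjusted for the number of genes, is the one that leaves out 0, and that of Lats2 is centred on 0.

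The secreted targets Ctgf and Cyr61 belong to the CCN family of matricellular proteins, which bind integrins and growth factors. Ctgf (annotated as Ccn2, chromosome 10, 24595442 to 24598683, plus strand) had 4665, 3658 and 7928 CPM with compound 33, against 3104, 3484 and 7471 CPM with DMSO. Replicate 3 stood far above the other libraries in both groups, and the groups overlapped. Ctgf took 0.479%, 0.370% and 0.743% of the reads in the compound 33 libraries and 0.306%, 0.354% and 0.741% in the DMSO libraries, and it ranked between 4th and 20th of all genes by reads. The coefficient of variation within a group was 41.2% with compound 33 and 51.6% with DMSO, where the median over the 3879 genes with a mean of at least 50 CPM was 15.6% and 18.6%. Counting noise is small at these 5853 to 21459 reads per library. In edgeR the estimate for Ctgf on the log2 scale was 0.21 (SE 0.36, 95% interval -0.57 to 0.99, adjusted p = 0.953). It ran from -0.16 without compound 33 replicate 3 to 0.72 without DMSO replicate 3, and was -0.01 without DMSO replicate 1.

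Cyr61 (annotated as Ccn1, chromosome 3, 145646976 to 145649981, minus strand), whose promoter site is shown above, had 392.5, 427 and 813 CPM with compound 33, against 515, 401.5 and 673 CPM with DMSO. Replicate 3 was again the highest library of each group. The means of 544 ± 233.5 CPM with compound 33 and 530 ± 136.5 CPM with DMSO were nearly equal, and the log2 fold change was 0.04 (SE 0.29, 95% interval -0.60 to 0.67, adjusted p = 0.987 in edgeR). Without compound 33 replicate 3 it was -0.36, and without DMSO replicate 3 it was 0.25. With the replicate number as a block, Ctgf stood at 0.25 (adjusted p = 0.934) and Cyr61 at -0.01 (adjusted p = 0.999).

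Ankrd1 (chromosome 19, 36111961 to 36120099, minus strand) is a nuclear ankyrin-repeat protein of stretched muscle and activated fibroblasts and a standard readout of YAP1 activity. Replicate 3 was its highest compound 33 library, as for Ctgf and Cyr61, but its lowest DMSO library, unlike for them. Ankrd1 had 10.4, 10.4 and 28.8 CPM with compound 33, against 26.0, 21.2 and 18.1 CPM with DMSO. Compound 33 replicates 1 and 2 lay below every DMSO library, and replicate 3 lay above every one. These values rest on 17, 25 and 56 reads with compound 33 and on 49, 47 and 52 reads with DMSO. The log2 fold change was -0.39 (SE 0.39, 95% interval -1.22 to 0.44, adjusted p = 0.905 in edgeR). Without compound 33 replicate 3 it was -1.05, with an unadjusted p of 0.00963 and an adjusted p of 0.749, and without compound 33 replicate 2 it was -0.12.

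The feedback inhibitors were Amotl2 and Lats2, and whether their fold changes differ was not tested. Amotl2 (chromosome 9, 102716672 to 102733418, plus strand) had 131, 134 and 104 CPM with compound 33, against 156, 152 and 174 CPM with DMSO. All compound 33 libraries were below all DMSO libraries, with 134 against 152 CPM for the nearest pair. The means were 123 ± 16.6 and 161 ± 11.8 CPM, 1.31-fold lower with compound 33, and the log2 fold change was -0.38 (SE 0.20, 95% interval -0.83 to 0.06) with an unadjusted p of 0.0816 and an adjusted p of 0.771 in edgeR. Lats2, the kinase that phosphorylates YAP1 and TAZ (chromosome 14, 57689662 to 57758388, minus strand), had 347, 337.5 and 363 CPM with compound 33, against 375, 295 and 380.5 CPM with DMSO. The compound 33 values lay inside the DMSO range, with means of 349 ± 13.1 and 350.2 ± 48.2 CPM. Its log2 fold change was -0.0035 (SE 0.20, adjusted p = 0.999 in edgeR), with a 95% interval of -0.44 to 0.43, or 0.739 to 1.35 times the DMSO level.

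Across the libraries the members did not move as a block. The pair with the highest Pearson's r of log2 CPM was Yap1 and Amotl2 (0.907 over 6 libraries), followed by Ctgf and Cyr61 (0.803), and the pair with the lowest was Tead3 and Ctgf (-0.626). These are descriptions over the same 6 libraries, which share their depth and scaling across genes. Each rested on a few libraries. Leaving out the 2 libraries farthest from the median of the first gene changed the values to 0.209, -0.767 and 0.320, and Spearman's rho over all 6 was 0.771, 0.486 and -0.429. Compound 33 replicate 3 held the lowest Yap1 and Amotl2 and the highest Ctgf, Cyr61 and Ankrd1 of the 6 libraries. DMSO replicate 3, high in Ctgf and Cyr61 as well, held the highest Yap1 and Amotl2.

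**Figure D3:**
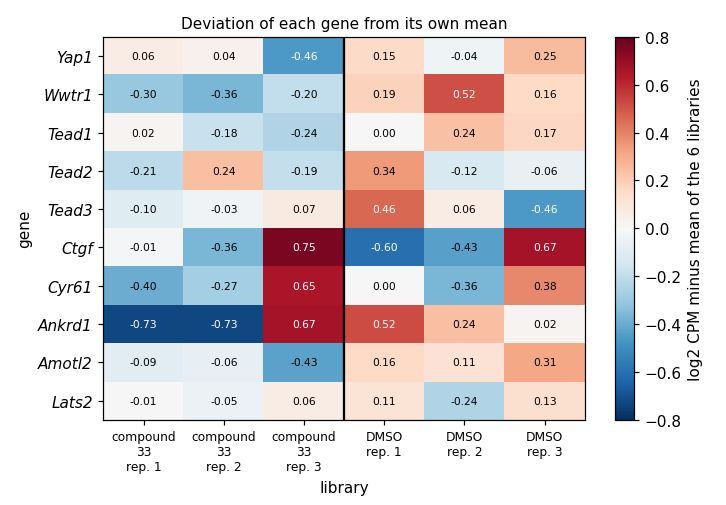
Log2 CPM of each gene in each library minus the mean of that gene over all 6 libraries, with compound 33 left of the line and DMSO right of it (red above the mean, blue below). Wwtr1 is below its mean in every compound 33 library, -0.30, -0.36 and -0.20, while Ctgf stands at 0.75 and 0.67 in the replicate 3 libraries.

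Among the 3879 genes with a mean of at least 50 CPM, those most like Ctgf over the 6 libraries were Bub3, a protein of the mitotic checkpoint (r = 0.992), Manf, a factor secreted under stress of the endoplasmic reticulum (r = 0.968), and Atp6v1g1, a subunit of the vacuolar proton pump (r = 0.955). Bub3 varied much less, with 469, 446.5 and 513 CPM for compound 33 and 429, 433 and 502 CPM for DMSO. Manf had 611, 526.5 and 855 CPM for compound 33 and 478, 569 and 737 CPM for DMSO. Without the 2 libraries farthest from the median of Ctgf, r was 0.976 for Bub3, 0.872 for Manf and 0.667 for Atp6v1g1. The genes most like Yap1 were the splicing factor Srsf5 (r = 0.986), the ubiquitin-conjugating enzyme Ube2k (r = 0.974) and the respiratory chain subunit Ndufa9 (r = 0.972), and without the 2 libraries farthest from its median r was 0.959, 0.999 and 0.841. A search of this many genes over 6 libraries can return high values by chance, and how often was not tested. No other member was among them, but Tead2, Tead3 and Ankrd1 lay below 50 CPM and were not searched.

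The surrounding pathway was examined with 3 lists. Of the 37 listed Hippo pathway genes, which hold the kinases, their scaffolds and the 14-3-3 proteins that retain phosphorylated YAP1, 36 were in the table and 32 were tested. None was called by edgeR, DESeq2 or limma-voom. The log2 fold change was positive for 16 and negative for 16, with a median of 0.03, and 2 lay under an unadjusted p of 0.05, both higher. Over all genes 6.87% lay under that level. Groups did not overlap for 3 higher and 1 lower of these 32, where 13.4% of all genes did not overlap, so both counts were near the background. Amotl1, an angiomotin related to Amotl2, stood at 203, 166 and 216 CPM with compound 33, against 92.3, 133.5 and 143 CPM with DMSO. The groups did not overlap, and the estimate in edgeR was 0.66 on the log2 scale (SE 0.23, adjusted p = 0.599), the opposite sign to Amotl2. Taok3, a kinase able to act upstream of the Hippo core, stood at 42.2, 47.7 and 29.3 CPM with compound 33, against 25.5, 28.4 and 23.7 CPM with DMSO (log2 fold change 0.63, SE 0.26, adjusted p = 0.697). The most abundant members of this list, Ywhae, a 14-3-3 protein, and Map4k4, another upstream kinase, had log2 fold changes of -0.19 and -0.10. The core kinases Stk3 (0.11), Stk4 (-0.31) and Lats1 (-0.07), and the tumour suppressor Nf2 (0.31), all had intervals that included 0.

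A list of 25 further YAP and TAZ target genes gave 24 that were tested, of which 13 were positive and 11 negative, with a median log2 fold change of 0.06. None was called by any of the 3 tools, and under an unadjusted p of 0.05 in edgeR there were 2 higher and 4 lower, where all genes gave 3.64% higher and 3.23% lower. Groups did not overlap for 3 higher and 2 lower genes, where all genes gave 6.64% and 6.73%. F3, tissue factor and the trigger of blood clotting, stood at 47.7, 27.0 and 42.2 CPM with compound 33, against 125.7, 65.9 and 67.9 CPM with DMSO (log2 fold change -1.16, SE 0.30, adjusted p = 0.401). Nt5e, the ectoenzyme CD73 that makes adenosine, stood at 5.50, 3.32 and 2.06 CPM with compound 33, against 12.2, 8.57 and 13.2 CPM with DMSO (log2 fold change -1.68, SE 0.45, adjusted p = 0.401). F3 and Nt5e had the smallest unadjusted p of this list in edgeR and were named for it. Both separated completely, and both estimates, selected in this way, were larger in size than that of any of the 10 members. That of Nt5e rests on few reads, 9, 8 and 4 with compound 33 and 23, 19 and 38 with DMSO. The insulin-like growth factor binding protein Igfbp3 and the growth factor Tgfb2 were the other lower genes, with log2 fold changes of -1.04 (SE 0.41) and -0.86 (SE 0.38) and groups that overlapped. The higher ones were Amotl1, which is also in the Hippo list along with Ptpn14 and Ajuba, and Myof, a membrane repair protein, at 443, 411 and 382 CPM with compound 33 and 289, 262 and 325.5 CPM with DMSO (log2 fold change 0.50, SE 0.20, adjusted p = 0.690). The most abundant of these targets, the receptor kinase Axl (0.19, SE 0.23) and the matrix protein Ccdc80 (-0.28, SE 0.23), had overlapping groups.

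Targets of MRTF and SRF, a second pair of factors that follows the state of actin and shares genes with YAP1 and TAZ, made up the last list. The list also holds the genes of the factors themselves, Srf, Mkl1 and Mkl2, which are counted in all its numbers below. All 22 genes found in the table were tested, and 21 were negative and 1, Tagln2, positive, with a median log2 fold change of -0.37. By edgeR 0 were called and by limma-voom 0, while DESeq2, with 0.188% of all genes called, called 1 (Actg1, lower). Under an unadjusted p of 0.05 in edgeR lay 6, all lower, where 3.23% of all genes did so. Of the 22, 7 had groups that did not overlap, all lower, where 6.73% of all genes did so. This list overlaps one whose lower values were already known when it was written down, so its direction is not independent evidence. The 6 under that level were the actins Actg1 (-0.95, SE 0.21) and Acta2 (-0.77, SE 0.24), vinculin (Vcl, -0.74, SE 0.20), calponin (Cnn1, -1.09, SE 0.33), transgelin (Tagln, -0.78, SE 0.32) and Filip1l (-0.73, SE 0.29). Tagln in compound 33 replicate 3 stood at 279 CPM against 119 and 103 CPM in the other compound 33 libraries, the same library in which Ctgf, Cyr61 and Ankrd1 were high. Its DMSO libraries held 256, 319 and 282 CPM. The most abundant members, Actb (-0.19) and Tagln2 (0.09), had intervals that included 0. Actb nevertheless belongs to the 7 whose groups did not overlap, while the groups of Tagln and Filip1l overlapped. The factors themselves, Srf (-0.18), Mkl1 (-0.01) and Mkl2 (-0.01), had small estimates.

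**Figure D4:**
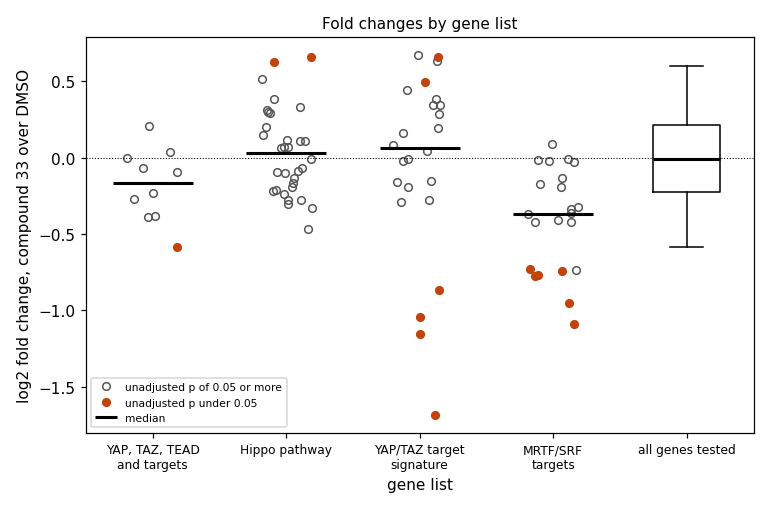
Log2 fold change of each tested gene, compound 33 over DMSO, in 4 lists (points, filled where the unadjusted p was under 0.05, with the list median as a line) and over all genes tested (box from the 25th to the 75th percentile, whiskers from the 5th to the 95th, line at the median). The medians are -0.16 for the YAP, TAZ, TEAD and target genes, 0.03 for the Hippo pathway, 0.06 for the YAP/TAZ target signature and -0.37 for the MRTF/SRF targets. The last list includes Srf, Mkl1 and Mkl2, the genes of the factors themselves.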

How the data were processed

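Libraries were made with a 3′ mRNA kit (QuantSeq) and sequenced on an Ion Proton, per the labels' protocols. FastQC 0.11.9, HISAT2 2.2.1, featureCounts 2.0.3, DESeq2 and build mm10 are named in the submitters' processing notes, while annotation and strand setting were not given in the sources used here. Whole-number read counts per gene, without normalization, are what the authors deposited. Their deposited comparison gives, per the file headers, the mean normalized count as a signal, the log2 fold change with its SE, the Wald statistic as a score, and the p-value and adjusted p-value.

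Counts were tested in R 4.3.3 with edgeR 4.0.16 (filterByExpr with a minimum count of 10, TMM scaling, robust quasi-likelihood F test, two-sided, group as the only term, all 6 libraries, Benjamini-Hochberg over 10124 genes, threshold 0.05). CPM are per 1000000 reads of the scaled library, and the SE is the unshrunk log2 fold change over the square root of F. Alternatives used DESeq2 1.42.0 and limma-voom (limma 3.58.1), other scalings and filters, no robust estimation, a replicate block, and each library left out. Depth was 1594052 to 2897207 reads, and with 3 libraries per group the typical variation between replicates, beyond counting noise, was 23.6%. Replicates differed by more than sampling noise (chi-square per degree of freedom 4.34 to 17.6) and were counted separately.

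Members and lists were chosen with earlier results of these data known. The named genes were all members, from each list the called genes or otherwise up to 6 with the smallest unadjusted p under 0.05 and the 2 most abundant, and the 3 genes most like Ctgf and Yap1. Other list genes given by their log2 fold change alone were added after their values were seen. Of the table's symbols 99.0% matched GENCODE M21 (mm10), and Ctgf and Cyr61 were matched through RefSeq synonyms. Exons of Yap1, Ctgf and Tead2 overlap Gm20416, Gm15270 and Cd37 on the opposite strand. Those of Tagln, Tgfb2, Vcl, Manf and Ndufa9 overlap other genes on that strand. With the strand setting not given, whether reads of opposite strands were kept apart is not known. Exons of Lats2, Actg1 and Manf overlap another gene on the same strand, so reads there cannot be told apart.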

Additional observations from a re-analysis of the deposited data

How the results depend on the processing

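Under all 15 alternatives 0 members, 0 Hippo pathway genes and 0 genes of the YAP/TAZ target signature were called, and of 150 re-estimated fold changes of members 135 kept their sign, among them every one of Yap1, Wwtr1, Tead1, Ankrd1 and Amotl2. The adjusted p of Wwtr1 ran from 0.394 to 0.961. Signs turned for Lats2, Cyr61, Tead3, Ctgf and Tead2. Lats2 was 0.0042 with the stricter filter, 0.0060 in limma-voom and 0.0057 with the replicate block, Tead3 0.012 in limma-voom, and Cyr61 -0.0086 in limma-voom and -0.0077 with the replicate block. With each library left out in turn, Lats2 ran from -0.11 to 0.061, Tead2 from -0.27 to 0.066, Tead3 from -0.30 to 0.19, Ctgf from -0.16 to 0.72 and Cyr61 from -0.36 to 0.25. The members' median stayed between -0.21 and -0.10.

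Calls over the whole table numbered 3 in the fit reported, 21 without a low-count filter, 19 in DESeq2, 7 with the replicate block, and 1 to 7 with each library left out. DESeq2 called 1 MRTF/SRF target. Whether the replicate numbers pair the libraries cannot be settled here. Deviations of same-numbered libraries correlated at -0.03, 0.21 and 0.08, and not every library correlated best with its own number. With 3 libraries per group, such correlations can neither show nor exclude a shared culture. The cause of these changes was not tested. Tead2, Tead3 and Ankrd1 had 17 to 56 reads per library, the fewest among the members, and the part of depth in their spread was not tested.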
